A study of Mus musculus with 30 samples.

Results

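The subject is a set of 603 sites of open chromatin that lost accessibility in mouse tail-tendon fibroblasts under blebbistatin and that carry a TEAD motif. They are the rows of the authors' deposited table of blebbistatin ATAC sites whose motif column was not empty, 603 of 970 listed sites or 62.2%. The table holds only sites at a false discovery rate (FDR) of at most 0.05. The motif was a de novo motif whose best match in the header was TEAD, with a similarity of 0.962. Which sites it was derived from is not given in the sources used here.

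The cells were primary fibroblasts of wildtype mice, kept in DMEM with 0.1% FBS. They received DMSO, the solvent; 10 µM blebbistatin, which blocks the motor of myosin II; or 30 µM Y27632, a kinase inhibitor. RNA and ATAC libraries were made from each of these groups, 3 libraries per group. A further 12 libraries, 3 per group, had neither drug, blebbistatin, doxycycline at 10 ng/mL, or both. The labels do not say what doxycycline induced or which assay gave these 12, and name ATAC as the protocol for genomic DNA. The series is described as a study of mechanical cues and of Yap and Taz in chromatin and transcription. Nothing in the labels ties the libraries of a group to separate animals or cultures, so the p-values measure the spread between these libraries, which may be technical.

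TEAD proteins are DNA-binding factors of the Hippo pathway and bind the element GGAATG. They have little activity alone and recruit the co-activators YAP and TAZ, which move into the nucleus in stretched or contractile cells and are kept out of it by the LATS kinases. YAP and TAZ with TEAD act mostly at distal enhancers, and VGLL proteins compete for or share the same TEAD surface. In fibroblasts, their targets include Ccn1 and Ccn2, secreted matricellular proteins.

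Across the 603 sites the deposited table gave 837 matches of 10 bases in 108 different sequences. They are written here 5′ to 3′ on the strand of the motif, with the core of 6 bases in capitals. The most frequent sequences are shown because they give the form in which the element occurred.
Most frequent, 26 matches: aGGAATGtgg
Next, 24 matches: aGGAATGcag
Next, 22 matches: aGGAATGcaa
Next, 20 matches: aGGAATGtct
All 4 differ only outside the core. The core GGAATG made up 536 matches (64.0%) and was present in 443 sites. The core GGAATT made up 226 matches (27%) and AGAATG 75 (8.96%). The first base of the match was A in 58.4% and T in 41.6%. The base after the core was T in 58.2% and C in 41.8%, and the last 2 bases held all 4 letters. Since the motif chose the sites, these letters describe the motif as it was searched.

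A single match lay inside a RefSeq promoter window of the reference table (GRCm38.p6), which let its position be read in its surroundings. The site spans chr4:63771405-63771592 in the deposited table and is annotated there to Tnfsf15, a cytokine gene of the TNF family. The part of it inside the window of Gm42294, 111 bases of the plus strand at chr4:63771482-63771592, is printed with the match in capitals.
Gm42294 window: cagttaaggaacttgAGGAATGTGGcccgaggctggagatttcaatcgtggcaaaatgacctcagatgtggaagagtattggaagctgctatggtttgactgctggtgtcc
The letters at chr4:63771497-63771506 were those listed in the deposited table for this match. In that table, the level of the site was 5.78 with DMSO and 4.35 with blebbistatin, both log2 group means, a log2 fold of -1.43 (FDR 0.045). Its log2 fold was -1.49 in the deposited list for blebbistatin alone of the 12 further libraries.

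Of the 603 sites, 403 held 1 match, 171 held 2, 24 held 3 and 5 held 4. The 200 sites with several matches gave 234 pairs of neighbouring matches, 136 on the same strand and 98 on opposite strands. One arrangement stood apart by its count. In 17 pairs, or 7.26%, both matches lay on the same strand with their starts 9 bp apart, which leaves 3 bases between the cores. No other single distance held more than 3 same-strand pairs. At the same 9 bp, 5 pairs lay on opposite strands, and no other distance held more than 4 opposite-strand pairs. The median distance was 51.5 bp, and the smallest listed was 8 bp. TEAD proteins are known to bind tandem copies of their element.

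**Figure D1:**
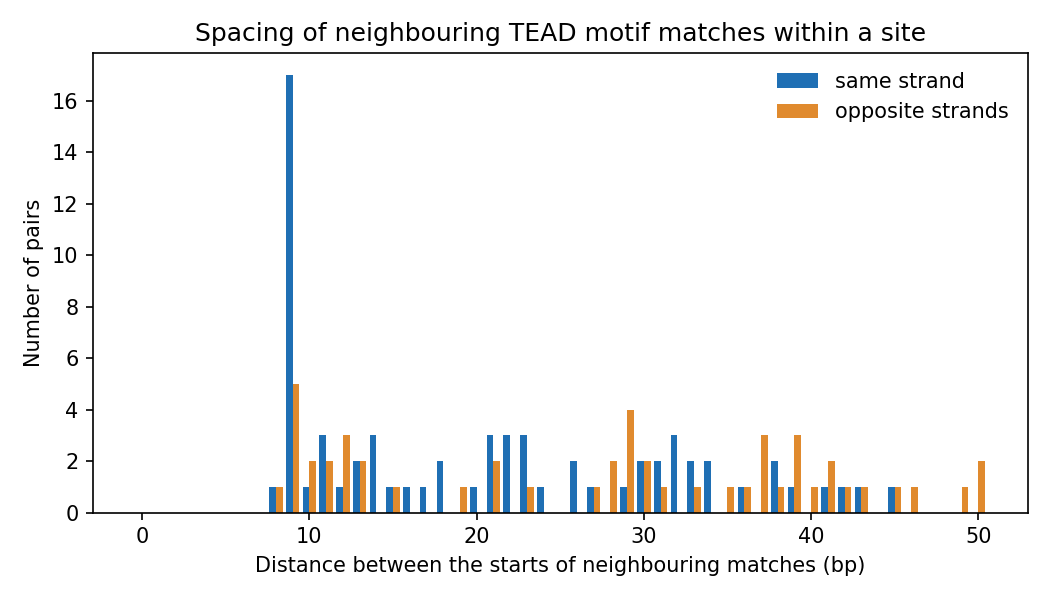
Number of neighbouring pairs of TEAD motif matches within a site (y axis) by the distance between their starts in bp (x axis, up to 50 bp), for matches on the same strand (blue) and on opposite strands (orange). The same-strand bar at 9 bp holds 17 pairs, and every other same-strand bar holds at most 3.

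The joined sequences of 7 such pairs are shown because both of their cores were GGAATG. They were singled out after the spacing was seen. Each is 19 bases long and named by the gene that the deposited table annotates to the site.
Col5a2 site: aGGAATGtcaGGAATGtga
Mir3063 site: tGGAATGtctGGAATGttc
Gm765 site: aGGAATGtcaGGAATGtaa
Ssbp3 site: tGGAATGtgaGGAATGtcc
2610008E11Rik site: tGGAATGccaGGAATGtta
Ccn1 site: aGGAATGtctGGAATGttt
Ildr2 site: tGGAATGtcaGGAATGcag
The 3 bases between the cores were tca in the Col5a2, Gm765 and Ildr2 sites, and tct in the Mir3063 and Ccn1 sites. The Col5a2 pair lay at chr1:45580641-45580659 and the Ccn1 pair at chr3:145703560-145703578, both on the minus strand. In the other 10 pairs at least 1 core was GGAATT or AGAATG, as in the Cdh6 site, where the first core is GGAATG and the second GGAATT.
Cdh6 site: tGGAATGtcaGGAATTctt
Of the 17 pairs, 15 read GGAATNNNNGGAAT, which is 2.49% of the 603 sites. Among 32851 RefSeq promoter windows of 300 bp, 22 (0.067%) held these letters on either strand. The windows had a GC content of 53.8%, and 14.7% of them held GGAATG, 12.2% GGAATT and 16.4% AGAATG on either strand. The sites were chosen for the motif and the windows were not, so the 2 shares describe different sets. Of the 17 sites, 3 lay in an annotated repeat, where 119 of all 603 motif sites (19.7%) did. Among the 3 was the Col5a2 site, which lies in a long terminal repeat element.

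The matches lay towards the middle of the sites. Within 50 bp of the centre of a site lay 477 matches (57.0%), and 33.2% of the bases of the sites lie there. Cut into 3 equal parts, the sites held 464 matches (55.4%) in the middle part, 205 in the first and 168 in the last. The 2 strands held 436 and 401 matches. The median width of a site was 268 bp, and the density was 4.61 matches per kb.

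All 603 sites were lower with blebbistatin in the authors' deposited table. Of about 62846 sites tested by the authors, a number worked out from the FDR and the rank, 1.52% were listed as lower. The rule used this table, so the direction at the members is given as a description. The median log2 level of the 603 sites fell from 6.53 with DMSO to 4.93 with blebbistatin in the table. The median log2 fold was -1.61, with quartiles of -1.78 and -1.495 and a range from -2.97 to -1.24, and at the median fold 32.8% of the DMSO level was left. The 367 listed sites without the motif comprised 350 lower and 17 higher sites, so all of the higher sites in the list lacked the motif. The 350 lower sites without it had a median log2 fold of -1.57, with 33.7% of the DMSO level left. Near the threshold of the table, the members just inside were annotated to Olfr1402 (FDR 0.0498), Gm15915 (FDR 0.0498) and Zfp277 (FDR 0.0499).

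**Figure D2:**
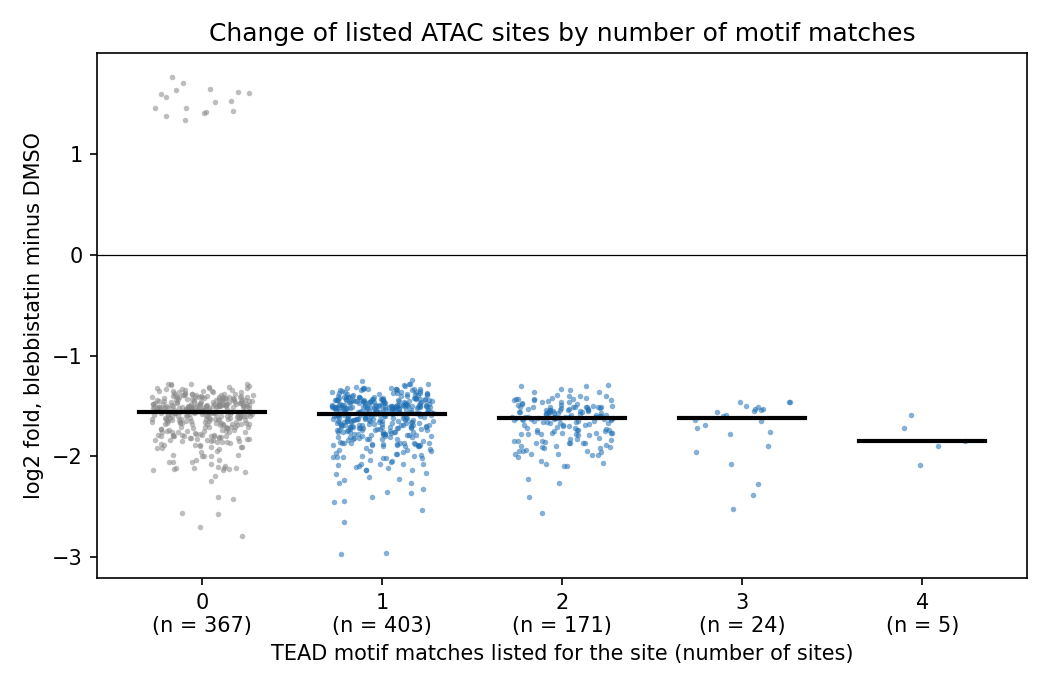
Log2 fold of each listed site, blebbistatin minus DMSO, as the authors deposited it (y axis), by the number of TEAD motif matches in the site (x axis); black bars are medians. The medians lie between -1.85 and -1.56, and the 17 sites above 0 hold no match.

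Sites with 2 or 3 matches were wider and higher in level than sites with 1, and their folds were close. In the deposited table, the median log2 fold was -1.58 for sites with 1 match, -1.62 with 2, -1.62 with 3 and -1.85 for the 5 sites with 4. The median log2 DMSO level was 6.39, 6.71, 7.21 and 6.78, and the median width 254, 305, 388 and 321 bp. Wider sites hold more bases in which a match can lie. The share of listed sites with the motif was 47.1% in the narrowest of 4 classes of width, then 60.3%, 66.4% and 75% in the widest. Within a class of width the levels with and without the motif were close, 7.35 and 7.35 in the widest and 5.78 and 5.71 in the narrowest. The folds there were -1.63 and -1.56 in the widest and -1.59 and -1.59 in the narrowest. At an FDR of at most 0.01 stood 207 motif sites (34.3%) and 94 sites without the motif (25.6%). The table holds no values per library, so none of these differences between kinds of site was tested.

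Most motif sites lay far from genes' starts. The annotation placed 321 (53.2%) between genes, 256 (42.5%) in introns, 13 at transcript ends, 6 in 3' UTRs, 3 in exons and 3 at promoters. The median distance to the nearest start was 46.1 kb, against 35.5 kb for listed sites without the motif. Only 6 sites lay within 1 kb of a start, 93 (15.4%) within 10 kb, and 178 (29.5%) over 100 kb away, against 21.0% of the sites without the motif. The median GC content was 44.4%, and 45.3% without the motif. Annotated repeats held 119 motif sites (19.7%), of which 68 lay in long terminal repeat elements (11.3%, against 8.17% without the motif).

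The 6 largest decreases at an FDR of at most 0.01 were at sites with log2 DMSO levels from 4.68 to 7.37 in the deposited table. In the authors' deposited table, the site annotated to Ppp1r3b, a glycogen-targeting subunit of protein phosphatase 1, had the lowest log2 fold, -2.97 (FDR 0.00387), from a level of 4.68 to 1.71. It lies between genes at chr8:35370782-35370865 and holds the most frequent match, aGGAATGtgg, on the minus strand. The site annotated to Snx19, a sorting nexin gene, fell by 2.96 in that table (FDR 3e-05), from 5.86 to 2.90, at chr9:30207520-30207683. The site annotated to Col5a2, a fibrillar collagen chain, fell by 2.56 (FDR 0.000155), from 7.14 to 4.58 in the deposited table, and holds the tandem pair printed above. It spans chr1:45580409-45580836, 77340 bp from the start of Col5a2. Sites annotated to Ptprz1, a receptor phosphatase, Nt5c1b, a nucleotidase, and Cavin2, a coat protein of caveolae, had deposited log2 folds of -2.53, -2.52 and -2.45. In all, 54 motif sites (8.96%) were at a log2 fold of -2 or lower in the table, against 28 (7.63%) of the listed sites without the motif.

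Sites with 4 matches show the element in clusters. The site annotated to 4930428D20Rik, at chr16:69790741-69791052 in a long terminal repeat element, holds its 4 matches within 42 bases on the plus strand, chr16:69790864-69790905, and is shown for that spacing.
Match 1: aGGAATGtgg
Match 2: tGGAATGcca
Match 3: tGGAATGcca
Match 4: aGGAATTtgg
Matches 3 and 4 are 9 bp apart, and matches 2 and 3 have the same letters. In the deposited table this site went from a log2 level of 6.34 to 4.44 (fold -1.90, FDR 0.00395). The site annotated to Zfp229, a zinc finger gene, went from 6.96 to 4.89 in that table, the Klf5 site from 7.90 to 6.05 and the Gm765 site from 5.97 to 4.38. The Klf5 site is the widest of these, at 652 bp, and its 4 matches all lie on the plus strand.

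Several genes, singled out after these counts were seen, had more than 1 motif site. Gm20125 had 5 sites, with deposited log2 folds from -2.13 to -1.49. Alkal1, Ankfn1, Anxa10, Cdc42ep3, Col28a1, Gm15915, Rubie and Vgll3 had 3 sites each. The lowest of these was an Anxa10 site at -2.65 in the deposited table. Vgll3 encodes a TEAD cofactor, and its 3 sites held 5 matches with deposited folds from -1.87 to -1.69.

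The other lists of sites were then searched for the same places, counting an overlap of at least 1 bp. In the authors' deposited list of Y27632 against DMSO, which used the same DMSO libraries, 102 motif sites (16.9%) recurred. All 102 were lower there, where 0.285% of about 61804 sites tested were listed as lower. They were 49.3% of the 207 sites of that list, of which 176 were lower. Their median log2 fold in the deposited tables was -1.37 with 30 µM Y27632, and -1.775 with 10 µM blebbistatin. Of listed sites without the motif, 47 (12.8%) recurred, 41 lower and 6 higher. Because the controls are shared, this recurrence is no independent measurement.

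Blebbistatin was also given without doxycycline in the 12 further libraries, which are separate from the ATAC libraries above. In that deposited list, 246 motif sites (40.8%) recurred and all 246 were lower. Of about 68975 sites tested there, 1.77% were listed as lower, at a log2 fold of at least 1 in size. The median log2 fold of the 246 in that list was -1.26, with a range from -2.21 to -1.0. The recurring sites were 20.3% of the 1231 sites of the list, of which 1219 were lower. Of the sites without the motif, 101 (27.5%) recurred, 100 lower and 1 higher. Sites of higher level recurred more often. Of 4 classes by DMSO level among the lower sites, in the highest 61.9% of motif sites and 52.6% of the others recurred, and in the lowest 26% and 18.5%. In the class above the lowest the order was the other way, 25.9% and 27.2%. The difference between the 2 kinds of site was not tested.

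The number of matches also went with recurrence in the list of blebbistatin without doxycycline. The share was 36% with 1 match, 49.1% with 2 and 58.3% with 3, and these sites also differed in level and width as given above. Of the 17 sites with the tandem pair, 10 (58.8%) recurred there and 6 (35.3%) in the Y27632 list. Of the 183 sites with several matches and no such pair, 91 (49.7%) and 35 (19.1%) did. The median DMSO levels of these 2 kinds of site were 6.73 and 6.76, and the median widths 312 and 316 bp.

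Doxycycline without blebbistatin moved the shared sites the other way. In that deposited list 177 motif sites (29.4%) recurred, all 177 higher, with a median log2 fold of 1.18. Of about 81359 sites tested there, 8.97% were listed as higher. The list itself held 7613 sites, 7297 of them higher, so most of its sites had that direction. The share among sites without the motif was 30.0%, so it was close for the 2 kinds of site. Of those 110 sites, 108 were higher and 2 lower. The reference column of this list is headed as blebbistatin without doxycycline. At 13 sites whose intervals were identical in both lists it differed from the group with neither drug by a mean of -0.128 (SD 0.00439), and from the group in the header by 1.12 (SD 0.184). It was read as the group with neither drug. In the deposited list of blebbistatin on top of doxycycline, 151 motif sites (25%) recurred, all lower, with a median log2 fold of -1.14. There 8.73% of about 72539 sites tested were listed as lower. Of the 6346 sites of that list 6332 were lower, and all 79 recurring sites without the motif (21.5%) were lower too. In 63 motif sites (10.4%) the level was higher with doxycycline and lower with blebbistatin on top of it. The same held for 41 sites without the motif (11.2%), a share close to that of the motif sites. These lists share libraries, so the counts are not independent. The group with doxycycline alone was the treated group of the doxycycline list and the reference of the list of blebbistatin on top. A high value in that group raises the one fold and lowers the other.

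**Figure D3:**
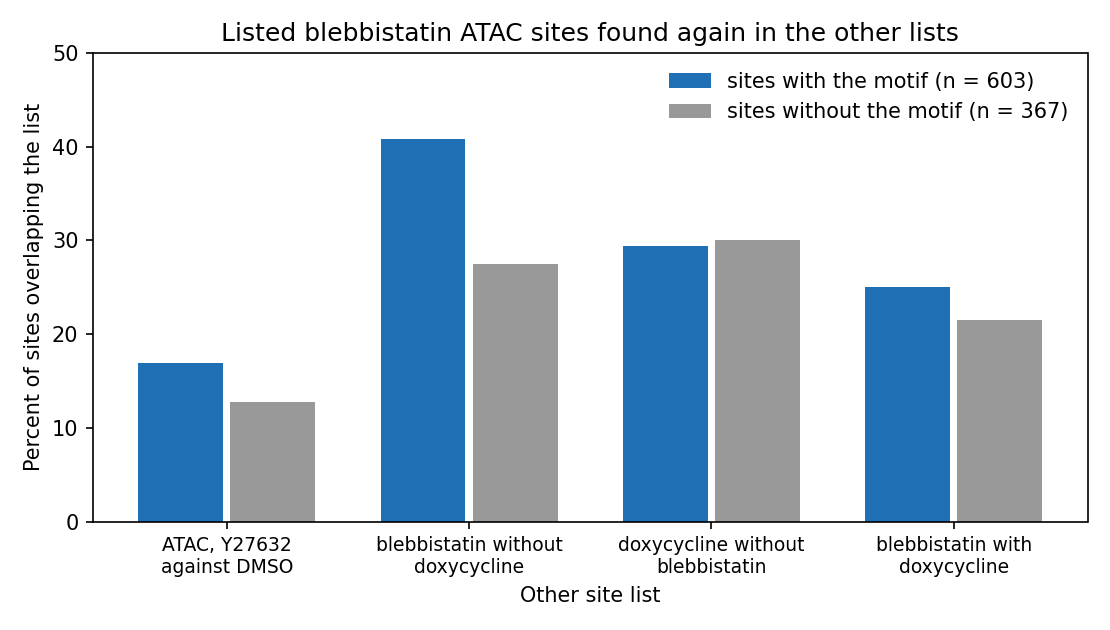
Percent of listed blebbistatin ATAC sites that overlap a site of each other deposited list by at least 1 bp (y axis), for the 603 sites with the TEAD motif (blue) and the 367 without (grey). The widest gap is in the list of blebbistatin without doxycycline, 40.8% against 27.5%, and the doxycycline shares are 29.4% and 30.0%.

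Few sites recurred everywhere. Of the motif sites, 60 were in both the Y27632 list and the list of blebbistatin without doxycycline, and 9 were in all 4 other lists. In none of the other lists were 188 (31.2%), against 40.1% of the sites without the motif. The site annotated to Mir710 was among the 9. Its deposited log2 folds were -2.38 with blebbistatin, -2.05 with Y27632, -1.87 with blebbistatin without doxycycline, 1.10 with doxycycline and -1.81 with blebbistatin on top. The Nt5c1b site was in all 4 as well, with folds of -2.52, -1.71, -1.84, 1.13 and -1.19 in the same order of deposited lists. The Col5a2 site was -1.84 with Y27632, -1.95 with blebbistatin without doxycycline and 1.59 with doxycycline in those lists, and was not in the list of blebbistatin on top of doxycycline. The Cavin2 site was -1.68 and -1.99 in the first 2 of them, and the Olfr1423 site -1.52 and -1.76.

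RNA was measured in 9 libraries with 23375386 to 37061737 reads in genes. All 8 fibroblast and 5 tendon markers had mean normalised counts over 10. The 8 fibroblast genes summed to 841454.5 to 896303.7 with DMSO and 796283.6 to 867106.3 with blebbistatin. Of the 8, 4 fell and 3 rose with blebbistatin, and of the 5 tendon markers 1 fell and 2 rose. With Y27632, 4 fibroblast and 3 tendon markers rose and none fell. Of 5 skeletal muscle markers only Acta1 had a mean of at least 10 (29.2 with DMSO), and Ckm was at 0. The 4 epidermal markers summed to 1.1 to 6.0 with DMSO, with Krt1 at 0. The 4 mural cell markers summed to 2046.0 to 2275.7 with DMSO and 2333.7 to 2617.8 with blebbistatin. Of 3 mural cell markers tested, Cspg4 rose and Rgs5 fell. The 6 macrophage and leukocyte markers summed to 5911.7 to 6493.5 with DMSO and 8328.6 to 9363.0 with blebbistatin, and 5 of 6 rose. Most of these sums was Lyz2, at a mean of 4527.2 with DMSO and 6500.7 with blebbistatin. In the Y27632 table the sums were 6137.1 to 6750.7 and 8794.9 to 9977.7, and 5 of 6 rose. Of 4 endothelial markers, 3 were tested and only Tek fell with blebbistatin, from a mean of 3110.4 to 2013.7; Cdh5 was at 67.0 and 82.5, Kdr at 14.6 and 22.2, and Pecam1 at 5.8 and 7.8. The 4 Schwann cell markers summed to 194.1 to 240.3 with DMSO and 352.8 to 383.3 with blebbistatin, and 2 of 3 tested, S100b and Sox10, rose. Of all genes tested, 26.9% were called lower and 26.1% higher with blebbistatin, and 17.8% and 18.1% with Y27632. The part of these marker shifts in the results below was not tested. In these bulk samples, fewer cells of a type and less RNA per cell cannot be told apart.

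Genes linked to the motif sites by the authors' annotation more often fell than rose under blebbistatin. Of 534 gene names, 529 were found in the RNA tables, and 353 of them had the mean normalised count of at least 10 that the test required. Of these, 199 (56.4%) were lower and 60 (17.0%) higher at a limma adjusted p under 0.05, where 26.9% and 26.1% of all 14882 genes tested were. The median log2 change of the linked genes was -0.23, and 0.0 over all genes. A fall by at least 1 on the log2 scale was called in 55 linked genes (15.6%), where 2.94% of all genes had one. For a rise of that size the shares were 12 genes (3.4%) and 3.64%. Of the 529 linked genes, 76 also had a listed site without the motif. With those left out, 164 (54.3%) of 302 tested were lower and 57 (18.9%) higher. Genes linked only to listed sites without the motif also fell more often than they rose, 84 (48.6%) and 40 (23.1%) of 173. The difference between the 2 kinds of linked gene was not tested, and a gene's filter on low counts could be passed through the DMSO libraries alone.

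Genes were then divided by their number of motif sites. Of 40 tested genes with 2 or more motif sites, 32 (80.0%) were lower and 3 (7.5%) higher with blebbistatin, with a median log2 change of -0.62. Of 313 genes with 1 motif site, 167 (53.4%) were lower and 57 (18.2%) higher, with a median of -0.20. The difference between these 2 kinds of gene was not tested. By distance to the nearest motif site, more genes fell than rose in every class. Of 50 genes with a motif site within 10 kb, 30 were lower and 7 higher. From 10 to 50 kb it was 88 and 22 of 151, from 50 to 100 kb 36 and 10 of 59, and beyond 100 kb 45 and 21 of 93.

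**Figure D4:**
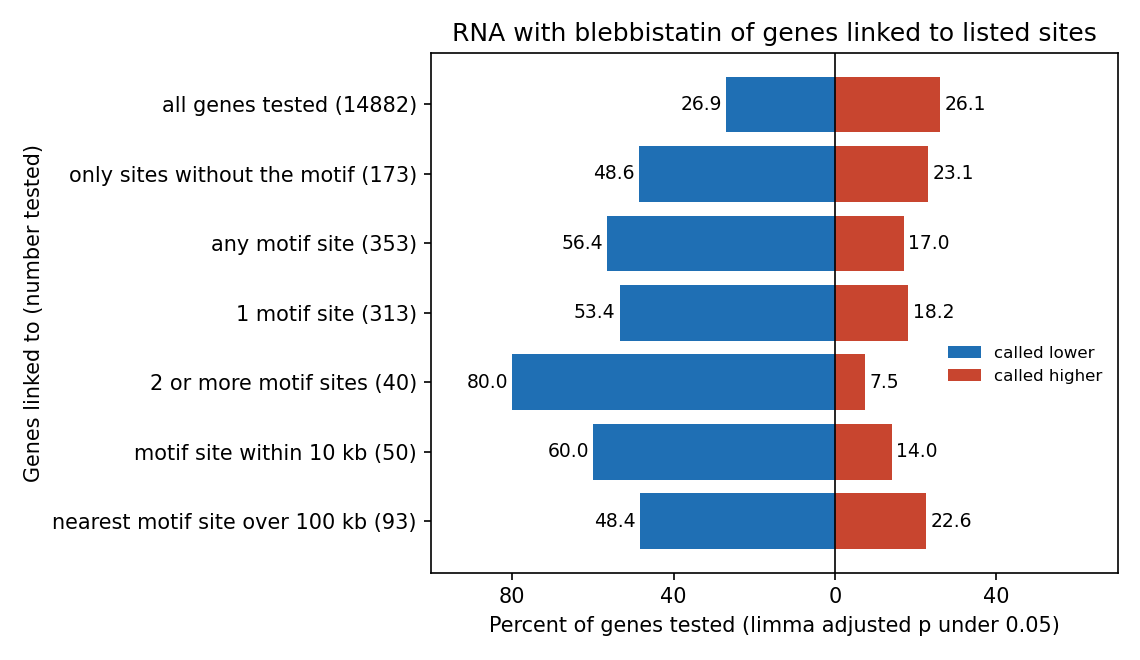
Percent of tested genes called lower (blue, to the left) and higher (red, to the right) with blebbistatin by limma, by the kind of site a gene is linked to (y axis, number tested in parentheses). Of all genes 26.9% are lower and 26.1% higher, of genes with 2 or more motif sites 80.0% and 7.5%.

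With Y27632 more of the linked genes fell than rose as well. Of 355 tested, 148 (41.7%) were lower and 46 (13.0%) higher, where 17.8% and 18.1% of all 14833 genes were. Falls by at least 1 were called in 12 linked genes (3.38%, against 0.937% of all genes). Rises of that size were called in 2 (0.563%, against 1.14% of all genes). Of 351 linked genes tested under both treatments, 119 were lower in both and 23 higher in both. A further 9 were lower with blebbistatin and higher with Y27632, 8 the reverse, and 70 lower with blebbistatin without a call with Y27632. The treatments share the DMSO libraries, and the same counts over all genes were not made. This overlap is therefore given as a count only and does not set the linked genes apart.

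Of 19 genes on a list of TEAD, YAP, TAZ and their regulators, 5 were linked to motif sites: Tead1, Tead3, Vgll3, Vgll4 and Amot. In the list 17 genes were tested, and 7 were lower (41.2%) and 6 higher (35.3%) with blebbistatin, where 26.9% and 26.1% of all genes tested were. The median log2 change of the list was -0.06. Tead1, a TEAD factor, had normalised counts of 9084.0, 8982.8 and 7951.8 with DMSO and 4158.1, 4003.2 and 4064.7 with blebbistatin. Its log2 change was -1.09 (SE 0.046, limma adjusted p = 1.65e-09), and its site fell by 1.54 in the deposited table. Every blebbistatin library was below every DMSO library. Tead3, of the same family, went from 1757.4, 1795.9 and 1785.2 to 780.1, 835.3 and 769.9, a change of -1.16 (SE 0.045, limma adjusted p = 6.97e-10). The groups again did not overlap. Its motif site lies 9596 bp from its start. With Y27632 the log2 changes of Tead1 and Tead3 were -0.36 and -0.72, with limma adjusted p-values of 4.17e-05 and 6.65e-08.

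The cofactor genes moved in both directions. Vgll3, with its 3 motif sites, had counts of 16119.6, 16874.6 and 16220.6 with DMSO and 5880.3, 5983.0 and 5973.9 with blebbistatin. That is a log2 change of -1.46 (SE 0.03, limma adjusted p = 4.41e-12), the lowest among the listed regulators. Vgll4, a TEAD cofactor known to oppose YAP, rose instead, from 935.3, 924.4 and 928.2 to 1449.0, 1450.3 and 1545.4, a change of 0.67 (limma adjusted p = 6.56e-08). Its motif site was lower, at a deposited log2 fold of -1.44, so site and RNA moved in opposite directions. With Y27632, Vgll4 was at -0.08 (limma adjusted p = 0.207). Amot, an angiomotin that binds YAP, went from 3281.5, 3487.0 and 2917.9 to 1385.7, 1461.0 and 1493.9, a change of -1.15 (limma adjusted p = 6.77e-09). Its site, at a deposited fold of -2.22, was the lowest of those linked to these 5 genes.

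Among the regulators with no motif site, Tead4 and Tead2 moved in opposite directions. Tead4 fell from 159.9, 161.1 and 162.0 to 88.3, 82.2 and 83.6 (log2 change -0.92, limma adjusted p = 1.38e-05), and Tead2 rose by 0.43 (limma adjusted p = 1.03e-06). Yap1 was at 0.13 (limma adjusted p = 0.00615) and Wwtr1, which encodes TAZ, at 0.33 (limma adjusted p = 2.52e-06). Of the upstream kinases and their partners, Lats1 fell by 0.29 and Mob1a fell by 0.26. Stk3 (-0.01), Mob1b (-0.06), Stk4 (-0.07) and Sav1 (-0.05) were not called. Nf2 rose by 0.13 (limma adjusted p = 0.00982) and Amotl1 by 0.18 (limma adjusted p = 0.00459).

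**Figure D5:**
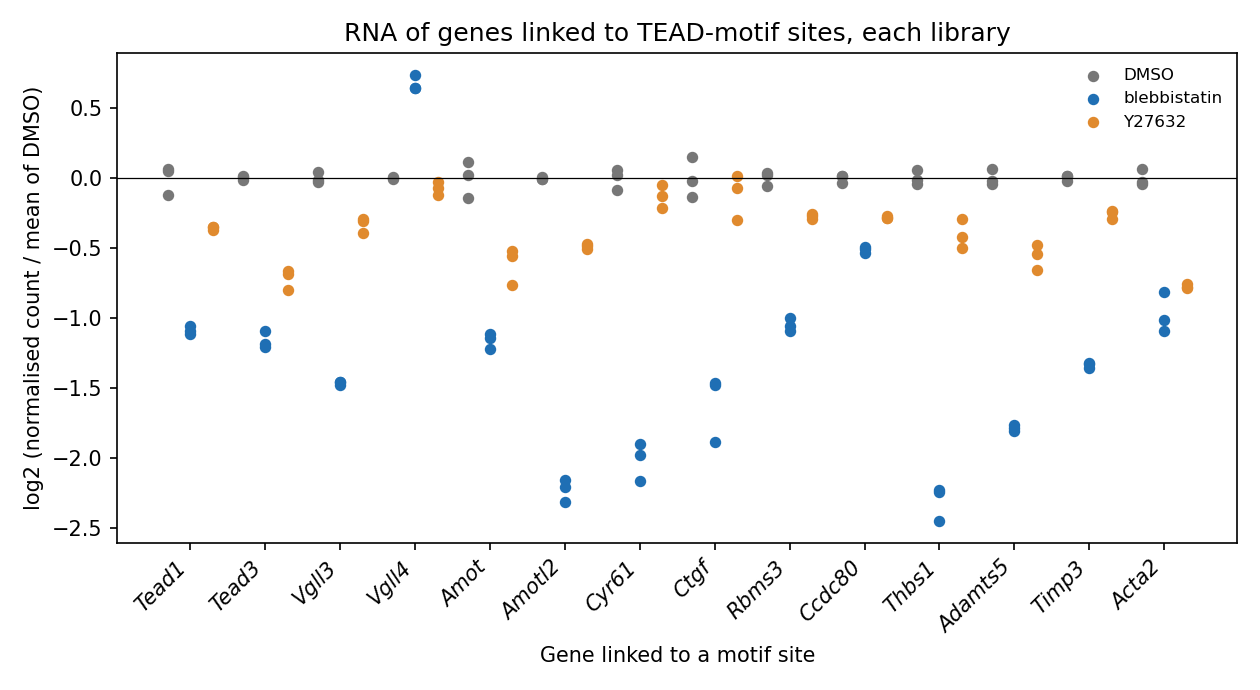
Log2 of the normalised RNA count over the mean of the DMSO libraries in the same deposited table (y axis) for 14 genes linked to motif sites (x axis); each point is 1 library of DMSO (grey), blebbistatin (blue) or Y27632 (orange). With blebbistatin all 3 libraries lie below the DMSO libraries in every gene shown except Vgll4, where they lie above. The genes shown were picked from the linked genes named in the text. Thbs2 and Timp2, which rose, and Asap1, which was not called, are among the linked genes left out. Of 353 linked genes tested with blebbistatin, 199 were called lower, 60 higher and 94 not called.

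Of 22 YAP and TAZ target genes, 16 were lower (72.7%) and 4 higher (18.2%) with blebbistatin, where 26.9% and 26.1% of all genes were, with a median log2 change of -0.50. Of these genes, 6 were linked to motif sites: Ccn1 and Ccn2 (Cyr61 and Ctgf in the RNA tables), Amotl2, Rbms3, Ccdc80 and Asap1. Amotl2, an angiomotin-like scaffold, had counts of 21419.7, 21634.6 and 21423.4 with DMSO and 4321.1, 4822.1 and 4651.8 with blebbistatin. Its log2 change was -2.23 (SE 0.038, limma adjusted p = 1.59e-12). Its site, in a long terminal repeat element, went from 7.47 to 5.47 in the deposited table and carries 2 matches on opposite strands, shown because both have the core GGAATT.
Amotl2 site, plus strand: tGGAATTctt
Amotl2 site, minus strand: tGGAATTtat
Cyr61 went from 9898.1, 10690.5 and 10942.0 to 2346.5, 2666.3 and 2817.9, a log2 change of -2.01 (SE 0.059, limma adjusted p = 7.3e-11). Its 2 motif sites, at chr3:145702798-145703054 and chr3:145703389-145703726, fell by 1.61 and by 1.56 in the deposited table, and the second holds the tandem pair printed above. With Y27632 the log2 change of Cyr61 was -0.13 (limma adjusted p = 0.0372), and the groups overlapped. It was not called without DMSO replicate 2 (-0.12), DMSO replicate 3 (-0.10), Y27632 replicate 1 (-0.13) or Y27632 replicate 2 (-0.09). The first of its sites was nonetheless in the deposited Y27632 list, at a log2 fold of -1.37.

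Ctgf went from 3136.5, 3399.9 and 3823.1 to 933.8, 1238.2 and 1252.3 with blebbistatin, a log2 change of -1.60 (limma adjusted p = 4.52e-08). With Y27632 it was at -0.11 (limma adjusted p = 0.267) and the groups overlapped, while its site was in the deposited Y27632 list at -1.27. Rbms3, an RNA-binding protein gene, fell by 1.05 with blebbistatin (limma adjusted p = 8.09e-10). Ccdc80, a secreted matrix protein gene with 2 motif sites, fell by 0.51 (limma adjusted p = 2.31e-08). Asap1, an Arf GTPase-activating protein gene, did not follow its site. Its counts were 5722.0, 5371.2 and 5308.5 with DMSO and 5662.1, 5391.9 and 5560.4 with blebbistatin (log2 change 0.02, limma adjusted p = 0.691), and its intronic site fell by 1.83 in the deposited table. Without DMSO replicate 3 the change was 0.

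Matrix genes linked to motif sites moved in both directions. Of 24 matrix structure genes, 14 were lower (58.3%) and 6 higher (25%), where 26.9% and 26.1% of all genes were, with a median log2 change of -0.17, and 5 were linked. Thbs1, a matricellular glycoprotein gene, had counts of 246916.4, 265061.9 and 251541.6 with DMSO and 46604.9, 53697.4 and 54286.9 with blebbistatin (log2 change -2.31, SE 0.054, limma adjusted p = 1.15e-11). The groups did not overlap. Its motif site fell by 2.10 in the deposited table. Its paralog Thbs2 rose, from 20740.5, 21377.6 and 19825.5 to 33203.1, 33659.3 and 32688.3 (log2 change 0.69, limma adjusted p = 4.97e-09), with its site at a deposited fold of -1.48. Col5a2, next to the site with the tandem pair, fell by 0.48 (limma adjusted p = 2.78e-07). Fbn1, a microfibril component, fell by 0.39 (limma adjusted p = 0.000486). Its relative Fbn2, at a mean of 24.6 with DMSO and 13.2 with blebbistatin, fell by 0.84 (limma adjusted p = 0.0167), and was not called without DMSO replicate 2 (-0.75) or DMSO replicate 3 (-0.78).

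Of 21 matrix degradation genes, 6 were lower (28.6%) and 13 higher (61.9%), where 26.9% and 26.1% of all genes were, with a median of 0.24. The linked ones were Adamts5, Timp2 and Timp3. Adamts5, an aggrecanase, had counts of 34851.5, 36966.0 and 34421.7 with DMSO and 10238.8, 10107.9 and 10396.9 with blebbistatin (log2 change -1.79, SE 0.033, limma adjusted p = 2.61e-12). Its nearest motif site is 279147 bp away. Timp3, an inhibitor of such proteases, fell by 1.34 (limma adjusted p = 7.1e-12). Timp2, of the same family, rose by 0.24 (limma adjusted p = 1.76e-05), although its site, 5917 bp from its start, was at a deposited fold of -2.0. Of 19 tested actin cytoskeleton and SRF genes, 15 were lower (78.9%) and 0 higher with blebbistatin at that threshold, where 26.9% and 26.1% of all genes were, with a median of -0.70. Only Acta2, smooth muscle actin, was linked. It fell by 0.97 with blebbistatin (limma adjusted p = 4.86e-08) and by 0.77 with Y27632 (limma adjusted p = 6.13e-09). None of 10 AP-1 factor genes was linked to a motif site. Of 35973 genes in the blebbistatin RNA table only 529 were linked, so this absence does not set the AP-1 list apart. Of 8 AP-1 genes tested, 1 was lower and 4 higher with blebbistatin, with a median of 0.2. With Y27632, 0 were lower and 6 higher of 8 tested.

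The linked genes named next averaged 100 or more normalised counts, with groups that did not overlap. The lowest was Npr3, the clearance receptor of natriuretic peptides, with 2 motif sites. Its counts were 2175.4, 2237.2 and 2042.5 with DMSO and 324.1, 421.0 and 324.3 with blebbistatin (log2 change -2.60, SE 0.088, limma adjusted p = 2.21e-10). With Y27632 it fell by 0.47 (limma adjusted p = 1.17e-05). Cyp26b1, which breaks down retinoic acid, fell by 2.53 with blebbistatin (limma adjusted p = 1.13e-08), from a mean of 222.8 to 37.6. With Y27632 it was at 0.07 (limma adjusted p = 0.707), and at -0.02 without DMSO replicate 2 or without Y27632 replicate 2. Palmd fell by 2.41 and has 2 motif sites, the nearer 14753 bp away. Bmp4, a growth factor gene, had counts of 649.4, 607.8 and 650.2 with DMSO and 142.3, 155.4 and 153.4 with blebbistatin, and fell by 2.07 (limma adjusted p = 3.39e-10). Cdh6, a cadherin gene whose tandem site is printed above, fell by 2.07, and Sema3d, a secreted guidance protein gene with a motif site 1460 bp away, fell by 1.89. That the 3 blebbistatin libraries lay below the 3 DMSO libraries in each of these genes was a condition of their choice. Cyp26b1 (37.6) and Palmd (59.9) averaged under 100 with blebbistatin and passed that limit through the DMSO libraries.

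Some linked genes rose although their sites were lower. The highest at a mean of at least 100 was Ppfibp2, a liprin gene, with counts of 154.9, 113.6 and 126.4 with DMSO and 333.4, 359.3 and 381.3 with blebbistatin (log2 change 1.45, SE 0.114, limma adjusted p = 4.32e-07). Tbc1d2b, a Rab GTPase-activating protein gene, rose by 1.27, Plxna4, a semaphorin receptor, by 1.20, and Antxr1, a collagen-binding receptor, by 1.15. With Y27632 these 4 genes rose by 0.49, 0.54, 0.80 and 0.58 in the same order. Map2k6 and Eya4, the others of the 6 highest, rose by 1.05 and 1.03 with blebbistatin. With Y27632, Map2k6 went the other way, at -0.29 (limma adjusted p = 0.0499), and Eya4 rose by 0.73. The motif sites of Tbc1d2b and Plxna4 lie 262742 and 207677 bp away, and the site of Ppfibp2 28017 bp. Those of Antxr1, Map2k6 and Eya4 lie 50166, 4359 and 177020 bp away. Plxna4 averaged 61.7 with DMSO and 143.1 with blebbistatin, so it passed the limit of 100 through the blebbistatin libraries.

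Of the genes annotated to the 6 sites with the largest decreases at an FDR of at most 0.01, 4 fell with blebbistatin and the other two were too low to test. Ppp1r3b fell by 0.54 with blebbistatin (limma adjusted p = 2.87e-05) and Snx19 by 0.45 (limma adjusted p = 5.88e-07). Ptprz1 had counts of 6.0, 4.4 and 5.7 with DMSO and 3.1, 5.8 and 5.5 with blebbistatin, under the minimum for a test, and Nt5c1b likewise had at most 7.4. Cavin2 (Sdpr in the RNA tables), with 2 motif sites, fell by 1.07 with blebbistatin (limma adjusted p = 3.38e-09) and by 1.07 with Y27632 (limma adjusted p = 4.79e-09). Mir710, Olfr1423 and 4930428D20Rik were listed at 0 in every RNA library. Zfp229, whose exonic site has 4 matches, was at -0.02 (limma adjusted p = 0.828), and at 0.01 without DMSO replicate 2 and 0.03 without blebbistatin replicate 1. Klf5 fell by 0.35 (limma adjusted p = 0.00611).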

How the data were processed

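RNA values were the authors' deposited signal, counts divided by a size factor per library. Per the submitters' processing notes, the tools named for the series were HISAT2, featureCounts and DESeq2, Bowtie2, SAMtools, Picard, MACS2, DiffBind and HOMER, with the build mm10; their settings and the use of strand are not given in the sources used here. In every column 100% of values were whole reads within 0.01. Genes with a mean of at least 10 were tested with limma 3.58.1 (R 4.3.3) on log2(normalised count + 1), which understates the change of low genes, with Benjamini-Hochberg adjustment and a threshold of 0.05, and the code was tested on simulated data. edgeR 4.0.16 on the recovered reads called 199 linked genes lower and 60 higher with blebbistatin.

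Site values are the authors': deposited log2 group means and folds, p-values and FDR, the GC fraction per the file headers, and other site properties such as distance. No table of sites holds values per library. Minus-strand matches were reverse-complemented, and positions count from 1. Deposited starts count from 0, since the GC fraction times end minus start was whole in 100% of sites. Gene names were matched to RefSeq, 14 of them by a synonym; 1 was a date and 4 were not found.

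The members, gene lists and markers were chosen with earlier results of these data known. Sites named, none on chromosome 18, have the 6 lowest folds at an FDR of at most 0.01, the most matches (4 sites, ties by FDR), YAP/TAZ target annotation, or the lowest mean fold among sites in 3 lists. Genes named are the 12 lowest and 6 highest called linked genes averaging 100 or more normalised counts whose groups did not overlap, list members and genes of named sites, and not all are printed. Alternatives were pseudocounts of 0.5 and 8, no filter or a mean of at least 100, edgeR, DESeq2 1.42.0, a replicate block, leaving out each library, sites within 50 kb, stricter FDR, overlap and motif.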

Additional observations from a re-analysis of the deposited data

How the results depend on the processing

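The median log2 fold of the motif sites was -1.87 at an FDR of at most 0.01 and -1.63 with at least 2 matches. The share in the doxycycline list was 34.8% at that FDR, and 7 tandem pairs had the exact core GGAATG in both matches. With sites within 50 kb, 118 linked genes were lower and 29 higher with blebbistatin, and 90 and 25 with Y27632. Without a filter on low values 203 were lower and 60 higher with blebbistatin.

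Same-numbered RNA libraries deviated with correlations of -0.16, 0.05 and 0.05 (blebbistatin) and -0.21, -0.05 and -0.10 (Y27632), so the numbers did not pair them. With a replicate block, 195 linked genes were lower and 58 higher with blebbistatin, and 136 and 39 with Y27632. No paired analysis was possible for the sites because the lists hold no values per library.

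Of 1373 alternative values for 106 named gene comparisons, 1306 kept direction and side of the threshold, 47 lost the call, 3 gained it and 17 changed sign. The sign changes all came from leaving out 1 library of genes near 0, and the cause was not tested. Over the fits without 1 library each, the log2 change with blebbistatin ranged from 0 to 0.05 for Asap1, from -0.06 to 0.03 for Zfp229 and from -0.04 to 0.02 for Stk3. With Y27632 the ranges were -0.02 to 0.24 for Cyp26b1, -0.01 to 0.06 for Asap1, 0 to 0.12 for Zfp229, -0.04 to 0.08 for Klf5, -0.03 to 0.06 for Stk3, -0.05 to 0.01 for Nf2 and -0.12 to 0.12 for Fbn2.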
